A study of Mus musculus with 6 samples.

Results

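The chaperone and co-chaperone genes of the HSP70, HSP110, HSP90, HSP60, HSP10, CCT, DNAJ and BAG families were examined together with the heat shock factor (HSF) genes that drive their transcription. Members were chosen by a rule on gene names, set with earlier results of these data known, and the small heat shock proteins were left out. The gene table held 77 such genes among 13116 protein-coding genes: 13 of HSP70 and HSP110, 3 of HSP90, 2 of HSP60 and HSP10, 8 of CCT, 41 of DNAJ, 6 of BAG and 4 of HSF. Of these 77 genes, 76 had a mean of at least 0.5 FPKM (fragments per kilobase of exon, scaled to the mapped fragments of the library) over all mice and were tested among 12847 genes. For the CCT genes, 18 protein-coding transcripts were also followed in the transcript table of 24946 rows, 17 of them tested.

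RNA from epididymal adipose tissue was sequenced in 3 control mice and 3 HuRAKO mice, with 1 library for each mouse. All 6 mice carried the floxed HuR alleles on a C57BL/6 background. Controls lacked the AdipoQ-Cre transgene, and HuRAKO mice carried it, so that Cre was driven by the adiponectin promoter, which is active in adipocytes, while other cells of the tissue kept their HuR alleles. Both groups were given a high-fat diet for 16 weeks from 8 weeks of age, and the comparison asks how loss of the RNA-binding protein HuR from adipocytes alters the RNA content of fat.

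Molecular chaperones bind unfolded stretches of other proteins, which keeps them from aggregating and helps them to fold. HSP70 works in cycles of ATP hydrolysis that DNAJ proteins start and that HSP110 and BAG proteins reset by nucleotide exchange, HSP90 takes over late folding intermediates of kinases and steroid receptors, and the ring-shaped chaperonins HSP60 (mitochondria) and CCT (cytosol) enclose their clients, which for CCT include actin and tubulin. Heat and other proteotoxic stress release heat shock factor from chaperones and let it bind repeated GAA units in promoters.

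Adipocyte markers were present in every mouse, with a summed level of 3410 to 4900 FPKM over 8 genes. Among these 8, only Lep and Aqp7 had an unadjusted limma p below 0.05. Both were higher in HuRAKO mice (log2 fold changes 1.49 and 0.58, limma adjusted p = 0.416 and 0.51). Elavl1, which encodes HuR, was listed at 3.93, 4.85 and 4.98 FPKM in controls 1, 2 and 3 and at 4.66, 5.24 and 5.63 FPKM in HuRAKO mice 1, 2 and 3. It was not lower in the mice labelled HuRAKO (log2 fold change 0.15, limma adjusted p = 0.807), so directions below refer to the groups as labelled. The study itself reports less HuR mRNA by qPCR and less HuR protein in adipose tissue of HuRAKO mice. By fraction, it reports the protein loss in mature adipocytes and not in the stromal vascular cells. The value here covers the whole gene in whole tissue, and the deletion was not tested. Of the other cell types checked, 6 of 7 mesothelial markers had an unadjusted p below 0.05 and were lower (summed level 173 to 271 FPKM in controls against 94.9 to 131 FPKM in HuRAKO mice), 4 of 6 endothelial markers were higher (134 to 175 against 207 to 290 FPKM), 2 of 5 smooth muscle markers, Acta2 and Tagln, were higher and carried the sum (132 to 171 against 209 to 376 FPKM, with a list median log2 fold change of 0.04), and none of 8 macrophage markers passed (601 to 1580 against 734 to 1070 FPKM). None of 5 tested lymphocyte markers passed, nor did the 1 tested marker of epididymis epithelium. Of all tested genes, 3.86% were higher and 4.16% lower at that p. In whole tissue, fewer cells of a type and less RNA per cell cannot be told apart. Sequencing depth is unknown, because FPKM does not keep it.

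The chaperone genes as a whole differed little between the groups. The median log2 fold change (HuRAKO minus control, on the log2(FPKM + 1) scale, which understates changes of low genes) was 0.014 over the 76 members and -0.014 over all tested genes, and 57 of the 76 were within 0.2 of 0. None of the 76 had a limma adjusted p below 0.05 over all genes, against 0.00778% of all tested genes. At an unadjusted p below 0.05, 4 members were higher, where 3.86% of all tested genes were, and 1 was lower, where 4.16% were. These 5 of 76 genes come to 6.58%, beside 8.03% of all tested genes in either direction. With the replicate number as a block the counts were 2 higher and 2 lower, and the shares of all tested genes in that fit are not given here. The study's thresholds, an unadjusted p below 0.05 with a fold above 1.5, were passed by 1 member and by 2.62% of all tested genes. The values of the groups did not overlap for 9 members (7 higher and 2 lower), 11.8% of them, beside 14.7% of all tested genes (7.04% higher and 7.68% lower).

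By family, the median log2 fold change was 0.026 for HSP70 and HSP110, 0.06 for HSP90, 0.05 for HSP60 and HSP10, 0.054 for CCT, 0.011 for DNAJ, -0.065 for BAG and -0.06 for HSF. For single genes the SD between mice of one group had a median of 0.155 on the same scale over the members and 0.185 over all tested genes. The largest sizes belonged to Hspa1a and Hspa1b, which were lower by their means through a single control mouse, and to Bag4.

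**Figure D1:**
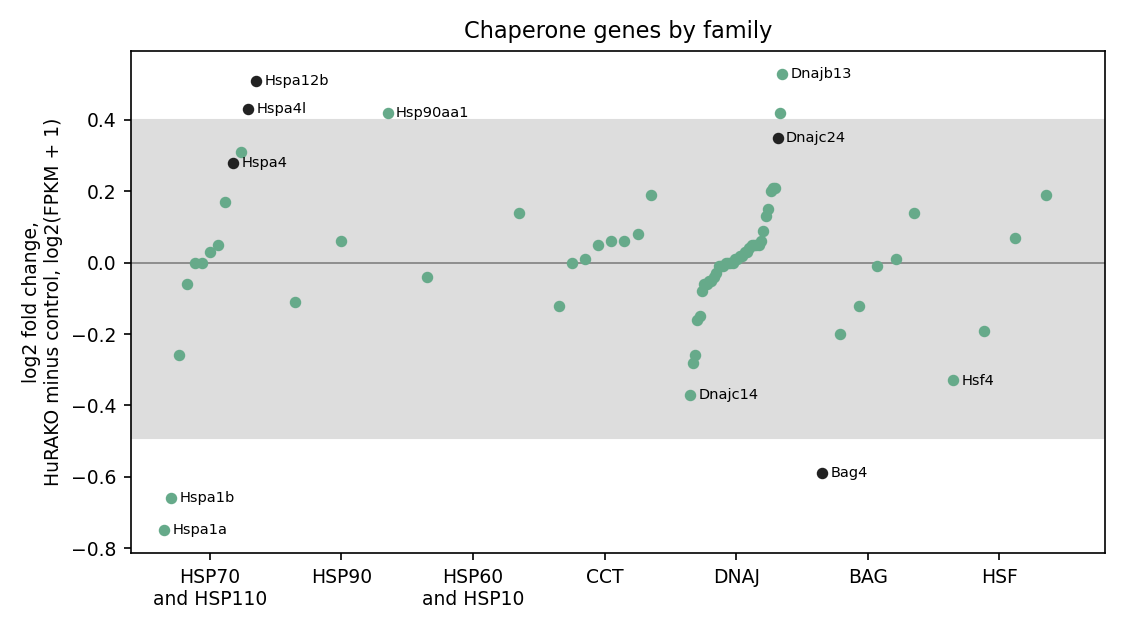
Log2 fold change (HuRAKO minus control, log2(FPKM + 1)) of the 76 tested members by family, 1 point per gene; black points have an unadjusted limma p below 0.05 and the grey band spans the 5th to 95th percentile of all 12847 tested genes, -0.49 to 0.4. The band holds 68 of the 76 members, with Bag4, Hspa1a and Hspa1b below it.

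Levels spanned a wide range. Hsp90ab1, the constitutive cytosolic HSP90, had the highest mean of all members, at 207, 236 and 235 FPKM in controls and 204, 189 and 239 FPKM in HuRAKO mice. Hspa8, the constitutive cytosolic HSP70, stood at 102, 123 and 140 FPKM in controls and 115, 125 and 138 FPKM in HuRAKO mice. The groups overlapped for both genes, and the log2 fold changes were -0.11 ± 0.13 (SE) for Hsp90ab1 and 0.05 ± 0.15 (SE) for Hspa8 (adjusted p = 0.865 and 0.946). Bag1, which binds the HSP70 ATPase domain and releases its nucleotide, averaged 109 ± 14.8 FPKM in controls and 94.6 ± 9.17 FPKM in HuRAKO mice (SD, n = 3 each). In FPKM, a value per length, the order of the highest means over all mice was Hsp90ab1 (219), Hspa8 (124), Bag1 (102), Hsp90b1 (99.7), Hspa9 (90.4) and Hspd1 (87.5), and from Hspa8 downwards each gene overlapped the next in its range over mice.

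Within the HSP70 and HSP110 family, 3 of 13 genes had an unadjusted p below 0.05, all higher, beside 3.86% of all tested genes in that direction. With the replicate block Hspa4 no longer did. Hspa4l and Hspa4 belong to the HSP110 group, which acts as nucleotide exchange factors of HSP70. Hspa4l (chromosome 3, 40744495 to 40796103, plus strand, GRCm38) was listed at 3.11, 3.40 and 2.90 FPKM in controls and 4.15, 4.83 and 4.74 FPKM in HuRAKO mice. Every HuRAKO mouse was above every control, the mean was 1.46 times that of controls, and the log2 fold change was 0.43 ± 0.11 (SE), with the smallest p of all members (limma adjusted p = 0.418). Hspa4 (chromosome 11, 53259814 to 53300457, minus strand) stood at 20.2, 22.3 and 22.0 FPKM in controls and 25.5, 24.8 and 28.7 FPKM in HuRAKO mice. Its groups did not overlap either, with a log2 fold change of 0.28 ± 0.11 (SE) and an adjusted p of 0.599. The remaining HSP110 gene among the members, Hsph1, was at 2.74, 4.26 and 2.71 FPKM in controls and 3.40, 3.10 and 6.64 FPKM in HuRAKO mice. Its groups overlapped, HuRAKO mouse 3 being the highest (log2 fold change 0.31 ± 0.27, adjusted p = 0.822).

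Hspa12b, a divergent HSP70 known for its expression in endothelial cells (chromosome 2, 131127280 to 131146321, plus strand), was listed at 21.4, 22.8 and 18.7 FPKM in controls and 27.8, 40.8 and 24.3 FPKM in HuRAKO mice. All HuRAKO mice were above all controls, HuRAKO mouse 2 most, and the log2 fold change was 0.51 ± 0.20 (SE) with an adjusted p of 0.61, or 0.3 without HuRAKO mouse 2. The locus overlaps Gm11037 on the same strand, so its reads could be shared. Endothelial markers moved in the same direction: Flt1 and Kdr, both receptors for vascular endothelial growth factor, had log2 fold changes of 0.66 and 0.72 (adjusted p = 0.339 and 0.445), and the summed endothelial level was highest, 290 FPKM, in the same HuRAKO mouse 2. The part of the endothelial markers in the Hspa12b result was not tested. Its relative Hspa12a, at 18.0, 14.8 and 10.3 FPKM in controls and 20.5, 12 and 9.6 FPKM in HuRAKO mice, overlapped between groups.

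**Figure D2:**
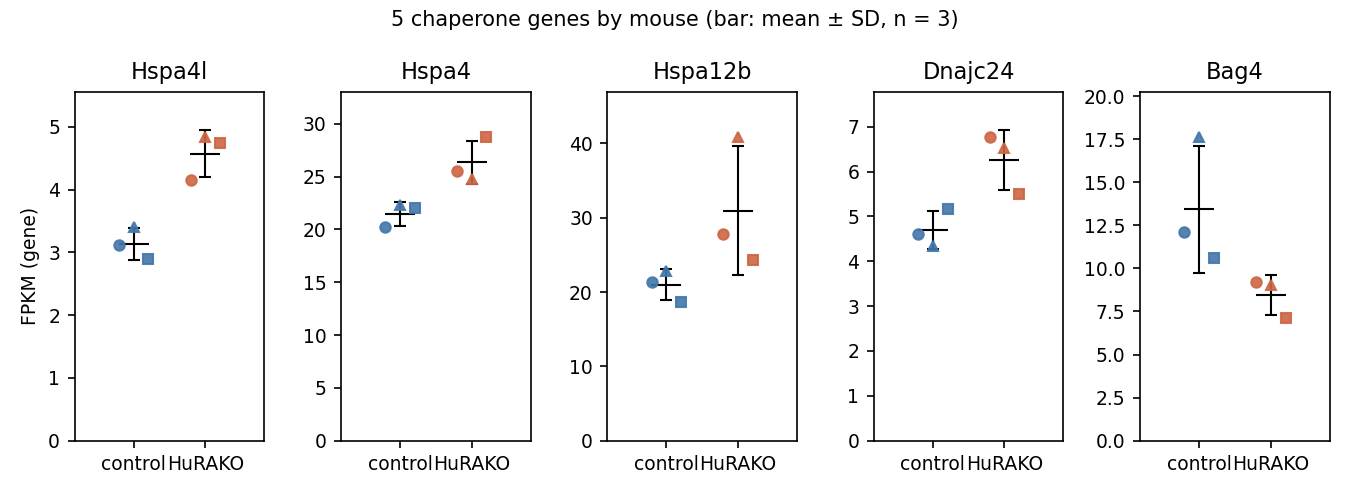
FPKM by mouse (gene table, linear axis from 0) of the 5 members with an unadjusted p below 0.05; circles, triangles and squares are replicates 1, 2 and 3, blue is control, orange is HuRAKO and bars are the mean ± SD of 3 mice. In each panel the groups do not overlap: Hspa4l, Hspa4, Hspa12b and Dnajc24 are higher in HuRAKO mice and Bag4 is lower.

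The strictly stress-inducible HSP70 genes were set apart by 1 mouse. Hspa1a (chromosome 17, 34969190 to 34972156, minus strand) was at 4.19, 27.1 and 5.30 FPKM in controls 1, 2 and 3 and at 4.73, 4.65 and 5.01 FPKM in HuRAKO mice. Hspa1b (chromosome 17, 34956436 to 34959238, minus strand) was at 7.24, 37.0 and 10 FPKM in controls and 8.16, 9.18 and 8.36 FPKM in HuRAKO mice. Control mouse 2 was thus 5.12 times the highest other mouse for Hspa1a and 3.69 times for Hspa1b, while the other 5 mice lay close together for each gene. These genes are near-identical copies, so how reads were divided between them is uncertain. Over all mice the log2 fold changes were -0.75 ± 0.61 and -0.66 ± 0.54 (SE), with adjusted p = 0.805 and 0.804, and without control mouse 2 they were 0.02 and 0.0.

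Dnaja4, a cytosolic partner of HSP70, showed the same mouse as highest, with 4.83, 16.6 and 4.65 FPKM in controls and 7.58, 5.45 and 6.51 FPKM in HuRAKO mice. Its log2 fold change was -0.16 over all mice and 0.38 without control mouse 2. Among the 76 members, Hspa1a, Hspa1b and Dnaja4 were the 3 (3.95%) for which control mouse 2 exceeded 1.5 times the highest other mouse, beside 192 genes (1.5%) of 12842 genes compared in this way. Ranked by that ratio among the 12842 genes, Hspa1a was number 30, Hspa1b number 52 and Dnaja4 number 90. Other stress-inducible members did not stand apart in this way, although some were highest in the same mouse. Dnajb1, the classical activator of inducible HSP70, was at 9.78, 13.4 and 12.2 FPKM in controls and 12.1, 10.5 and 12.7 FPKM in HuRAKO mice. Control mouse 2 was thus the highest for Dnajb1 by a small margin. The same held for Hsp90aa1, the inducible cytosolic HSP90, at 67.4 FPKM against 66.2 FPKM in the next mouse, a HuRAKO mouse. For Hsph1, control mouse 2 was the highest control (4.26 FPKM) but lay below HuRAKO mouse 3 (6.64 FPKM). Bag3, an inducible HSP70 partner in selective autophagy, was at 27.3, 30.2 and 33.9 FPKM in controls. In HuRAKO mice Bag3 was at 28.3, 31.2 and 32.2 FPKM, so control mouse 2 was not the highest. Immediate early genes, 10 of them, summed to 113, 285 and 447 FPKM in controls and 201, 211 and 264 FPKM in HuRAKO mice, so that control mouse 3 and not control mouse 2 was highest.

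**Figure D3:**
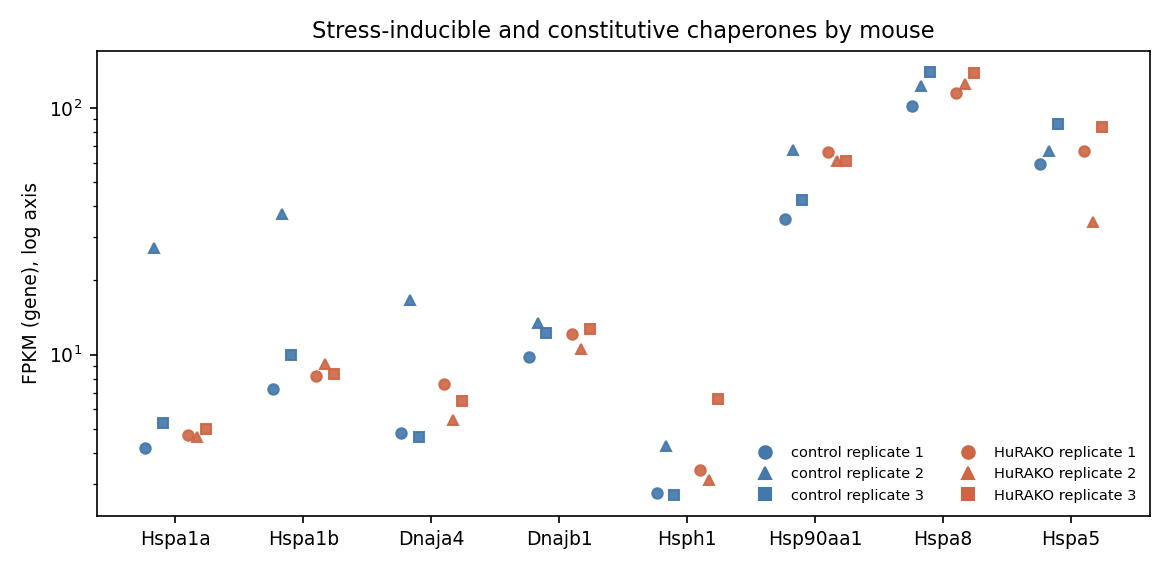
FPKM by mouse (gene table, log axis) of 8 chaperone genes; circles, triangles and squares are replicates 1, 2 and 3, blue is control and orange is HuRAKO. Control replicate 2 stands alone above the other mice for Hspa1a (27.1 FPKM), Hspa1b (37.0 FPKM) and Dnaja4 (16.6 FPKM), and HuRAKO replicate 2 stands below them for Hspa5 (34.5 FPKM).

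Matches to the binding site of heat shock factor in the promoters are shown because stress is known to act on the inducible members through such sites. A promoter was the stretch from 250 bases before to 50 bases after a RefSeq start site (GRCm38.p6), and 61 of the 77 members had one. Those without one include Hsp90aa1, Hsp90ab1, Hspa8, Hspa9, Hsf1 and Bag4, so the counts below do not cover them. A pair of inverted units, GAANNTTC or TTCNNGAA on either strand, occurred in 14 of 61 member promoters (23.0%) and in 1405 of 9937 promoters of tested genes (14.1%). An array of 3 such units in alternating orientation, which holds the 2-unit motif as well, occurred in 4 of 61 (6.56%) and in 56 of 9937 (0.564%). The 4 genes were Hspd1 and Hspe1, whose divergent promoter holds 1 shared array, Hsph1 and Dnajb6. Capitals mark the GAA and TTC units of 1 match in each of the sequences below, which are printed along the strand of the gene and credited to RefSeq. The chromosome coordinates cover the whole printed stretch, and the positions from the start site cover only the match. For matches of 3 units these positions include 1 further base on each side of the outer units.
Hspe1, chr1:55088053-55088077, plus strand, -90 to -76 from the start site: ggtccgTTCtaGAAccTTCcggaag
Dnajb6, chr5:29735846-29735870, plus strand, -47 to -33 from the start site: ctccgaGAAtcTTCcgGAAcgctag
Hsph1, chr5:149636282-149636306, minus strand, 14 to 28 after the start site: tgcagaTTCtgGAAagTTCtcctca
Hspa1a, chr17:34972245-34972268, minus strand, -104 to -97 from the start site: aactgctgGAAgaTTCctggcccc
Hspa1b, chr17:34959327-34959350, minus strand, -104 to -97 from the start site: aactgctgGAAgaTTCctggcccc
Dnaja4, chr9:54699499-54699522, plus strand, -52 to -45 from the start site: tcctggcgGAAccTTCcgccggcg
In the Hspe1 sequence the gaa after the last capitals is a further unit, used by an overlapping match. The Hspa1a and Hspa1b windows are the same letter for letter over these 24 bases. Each of the 3 genes that stood out in control mouse 2, which were picked by that value, has a 2-unit match and none has a 3-unit match. The rest of the 14 members with a 2-unit match, such as Bag3, Dnaja1 and Dnajb4, did not stand out in that mouse. Of the 4 genes with 3 units Hsph1 had the widest range over mice relative to its level. A link between matches and levels was not tested. A match is a description of the letters and not evidence of a bound site.

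The heat shock factors themselves were low, all 4 below 3 FPKM in every mouse. Hsf1, the main stress-responsive factor, was at 2.33, 2.16 and 1.92 FPKM in controls and 1.65, 2.44 and 2.89 FPKM in HuRAKO mice, and its groups overlapped. Hsf2, a developmental factor that forms mixed trimers with HSF1, was at 2.23, 2.21 and 2.03 FPKM in controls and 1.84, 1.79 and 1.70 FPKM in HuRAKO mice. Each HuRAKO value of Hsf2 was below each control value, with a small difference of -0.19 ± 0.09 on the log2 scale (SE; adjusted p = 0.687). Hsf4, known for its role in the lens, had 2.38, 1.22 and 1.68 FPKM in controls and 1.30, 1.06 and 1.12 FPKM in HuRAKO mice, with overlap (log2 fold change -0.33, adjusted p = 0.7). Hsf3 averaged 0.676 FPKM in controls and 0.909 FPKM in HuRAKO mice and lies across Heph, which is on the opposite strand.

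Hsp90aa1, the inducible cytosolic HSP90, was at 35.6, 67.4 and 42.2 FPKM in controls and 66.2, 61.2 and 61.1 FPKM in HuRAKO mice. The HuRAKO mice were close together, and controls 1 and 3 were below them while control 2 was above them. The log2 fold change was 0.42 ± 0.23 (SE), with an adjusted p of 0.726, and it ran from 0.23 without control mouse 1 (adjusted p = 0.819) to 0.68 without control mouse 2 (adjusted p = 0.565, unadjusted p below 0.05). Hsp90b1, the endoplasmic reticulum form, was at 89.3, 95.2 and 108 FPKM in controls and 94.9, 93.9 and 117 FPKM in HuRAKO mice, and overlapped. Of 18 co-chaperones that serve HSP90 and HSP70, none reached an unadjusted p below 0.05, and their median log2 fold change was 0.04.

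In the endoplasmic reticulum, Hspa5 (BiP), the main HSP70 of that compartment, was at 59.2, 67.0 and 86.0 FPKM in controls and 67.2, 34.5 and 83.8 FPKM in HuRAKO mice. HuRAKO mouse 2 had the lowest value, about as far below the next mouse as that mouse was below the highest. The log2 fold change was -0.26 ± 0.33 (SE, adjusted p = 0.871), and 0.1 without HuRAKO mouse 2. The DNAJ partners of BiP were steady: Dnajb9, which represses the stress sensor IRE1, averaged 24.5 ± 4.47 FPKM in controls and 24.8 ± 3.16 FPKM in HuRAKO mice. Dnajc3, an inhibitor of PERK that also works inside the reticulum, averaged 35.0 ± 2.95 and 34.4 ± 3.73 FPKM, and Dnajc10, a disulfide reductase, 19.5 ± 3.40 and 18.5 ± 0.713 FPKM (SD, n = 3 each). Of 20 other genes of folding in the reticulum, 2 had an unadjusted p below 0.05 and both were lower, beside 4.16% of all tested genes, while 12 of the 20 had a log2 fold change above 0 (median 0.05). Pdia4, a protein disulfide isomerase, was at 50.6, 54.8 and 60.8 FPKM in controls and 42.9, 43.5 and 42.1 FPKM in HuRAKO mice, without overlap (log2 fold change -0.36 ± 0.11, adjusted p = 0.49). Sil1, a nucleotide exchange factor of BiP, was at 27.5, 31.1 and 32.9 FPKM in controls and 24.2, 25.1 and 25.7 FPKM in HuRAKO mice, also without overlap (log2 fold change -0.27 ± 0.11, adjusted p = 0.607). Pdia6, another isomerase, was higher without overlap (limma adjusted p = 0.648). Hyou1, with the next smallest p, overlapped between groups (log2 fold change 0.32 ± 0.18, limma adjusted p = 0.722). None of 11 regulators of the unfolded protein response had an unadjusted p below 0.05.

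In mitochondria, Hspd1 (HSP60) was at 91.5, 92.6 and 66.5 FPKM in controls and 98.7, 81.4 and 94.2 FPKM in HuRAKO mice, and its lid Hspe1 (HSP10) at 31.7, 35.3 and 32.7 FPKM in controls and 35.7, 25.8 and 36.3 FPKM in HuRAKO mice. Both overlapped between groups, with log2 fold changes of 0.14 ± 0.16 and -0.04 ± 0.15 (SE). Hspa9 (mortalin), the mitochondrial HSP70 that pulls proteins through the inner membrane, was at 94.5, 91.4 and 69.9 FPKM in controls and 95.7, 93.8 and 97.1 FPKM in HuRAKO mice. Control mouse 3 was the lowest for both Hspd1 and Hspa9, and the log2 fold change of Hspa9 was 0.17 ± 0.14 (SE, adjusted p = 0.8). None of 11 genes of mitochondrial chaperone partners and proteases had an unadjusted p below 0.05.

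The 6 BAG genes held the member with the clearest lower value. Bag4, which was named silencer of death domains for its binding to the TNF receptor (chromosome 8, 25764538 to 25785287, minus strand), was at 12.1, 17.6 and 10.6 FPKM in controls and 9.22, 9.01 and 7.12 FPKM in HuRAKO mice. The groups did not overlap, the HuRAKO mean was 0.629 times the control mean, and the log2 fold change was -0.59 ± 0.20 (SE; limma adjusted p = 0.541). Bag4 was the member past the study's thresholds, and without control mouse 2, its highest value, the log2 fold change was -0.39 and the unadjusted p was no longer below 0.05. The other BAG genes overlapped between groups: Bag5 (12.4 ± 0.25 against 12.3 ± 0.885 FPKM) and Bag6, which guards tail-anchored proteins (24.0 ± 1.79 against 26.6 ± 1.65 FPKM), are examples, with SD over 3 mice each.

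The DNAJ family, which supplies the J domain that stimulates ATP hydrolysis by HSP70, was the most numerous, with 40 genes tested: 4 of class A, 11 of class B and 25 of class C. The most abundant were Dnaja2 with a mean of 42.5 FPKM over all mice, Dnajc3 (34.7 FPKM), Dnajc8 (25.1 FPKM), Dnajb9 (24.6 FPKM), Dnajc7 (21 FPKM) and Dnajc10 (19.0 FPKM), and none of these had an unadjusted p below 0.05. Dnajc24, which takes part in making diphthamide on elongation factor 2, was the only DNAJ gene of the 40 with an unadjusted p below 0.05, and with the replicate block Dnajc14 took its place. Dnajc24 was at 4.60, 4.34 and 5.17 FPKM in controls and 6.76, 6.52 and 5.49 FPKM in HuRAKO mice, all HuRAKO mice being above all controls (log2 fold change 0.35 ± 0.12, adjusted p = 0.541). Its groups stayed apart by a small margin between control mouse 3 and HuRAKO mouse 3.

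Of the other DNAJ genes, 3 of class B were higher without overlap, as were 7.04% of all tested genes, although their unadjusted p was above 0.05. Dnajb14, a membrane protein of the endoplasmic reticulum, was at 5.17, 4.86 and 4.31 FPKM in controls and 6.08, 5.47 and 5.39 FPKM in HuRAKO mice (log2 fold change 0.20 ± 0.11, adjusted p = 0.712). Its close relative Dnajb12 was at 16.6, 17.2 and 13.4 FPKM in controls and 17.6, 17.3 and 20.0 FPKM in HuRAKO mice (0.21 ± 0.13, adjusted p = 0.759), and Dnajb5 differed by 0.09 on the log2 scale. In the other direction the smallest p-values belonged to Dnajc14, at 8.41, 10 and 7.08 FPKM in controls and 7.13, 6.73 and 5.19 FPKM in HuRAKO mice (log2 fold change -0.37 ± 0.16, adjusted p = 0.648), and Dnajc21, a factor of ribosome maturation, at 6.77, 7.27 and 5.62 FPKM in controls and 5.72, 5.32 and 4.81 FPKM in HuRAKO mice (-0.26 ± 0.13, adjusted p = 0.672). Both overlapped between groups. Dnajc14 overlaps 3 other listed genes, of which Sarnp lies on the same strand. The largest positive difference among all members was that of Dnajb13, an axonemal protein in motile cilia and sperm tails, at 0.875, 1.43 and 1.32 FPKM in controls and 4.0, 0.997 and 2.20 FPKM in HuRAKO mice. Its groups overlapped, HuRAKO mouse 1 held most of the difference (log2 fold change 0.53 ± 0.33, adjusted p = 0.754), and the locus overlaps Ucp2 on the opposite strand. The untested member, Dnajc22, was at 1.76 FPKM in control mouse 2 and at or below 0.107 FPKM in the other 5 mice, 3 of which were listed at 0.

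The CCT genes were the steadiest family. All 8 had log2 fold changes between -0.12 and 0.19, none reached an unadjusted p below 0.05, and none was free of overlap between groups. Their median SD within groups was 0.101 on the log2 scale. Cct2 was at 51.0, 56.2 and 53.5 FPKM in controls and 54.6, 54.0 and 59.7 FPKM in HuRAKO mice, and Cct5 at 46.7, 52.3 and 48.8 FPKM in controls and 46.2, 52.6 and 50.4 FPKM in HuRAKO mice. Both overlapped almost fully, and Tcp1, which encodes the alpha subunit, varied least, from 25.5 to 26.6 FPKM in controls and from 26.5 to 27.8 FPKM in HuRAKO mice. Although the subunits occur once each per ring, gene FPKM ranged from a mean of 54.8 for Cct2 and 49.5 for Cct5 through 34.3 for Cct8, 26.7 for Tcp1, 26.0 for Cct4 and 15.3 for Cct7 to 10.2 for Cct3. Neighbours in this order overlapped between Cct2 and Cct5 and between Tcp1 and Cct4, whereas the ranges of Cct8, Cct7 and Cct3 over the 6 mice did not meet those of their neighbours. This order holds for the gene table, whose FPKM divides by a length that differs between the genes (for all annotated exons, 3088 bases for Cct8, 5030 for Tcp1, 6370 for Cct3 and 6778 for Cct7), and the listed transcripts of Tcp1 and Cct8 overlapped in level. Cct6b, a subunit form known from testis, was near the limit at 0.655 FPKM. Cct6a is not listed, so the 8 genes do not cover every CCT gene. Prefoldin and the phosducin-like partners, which hand clients to CCT (9 genes), and actin and tubulin genes (10 genes) held none with an unadjusted p below 0.05.

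**Figure D4:**
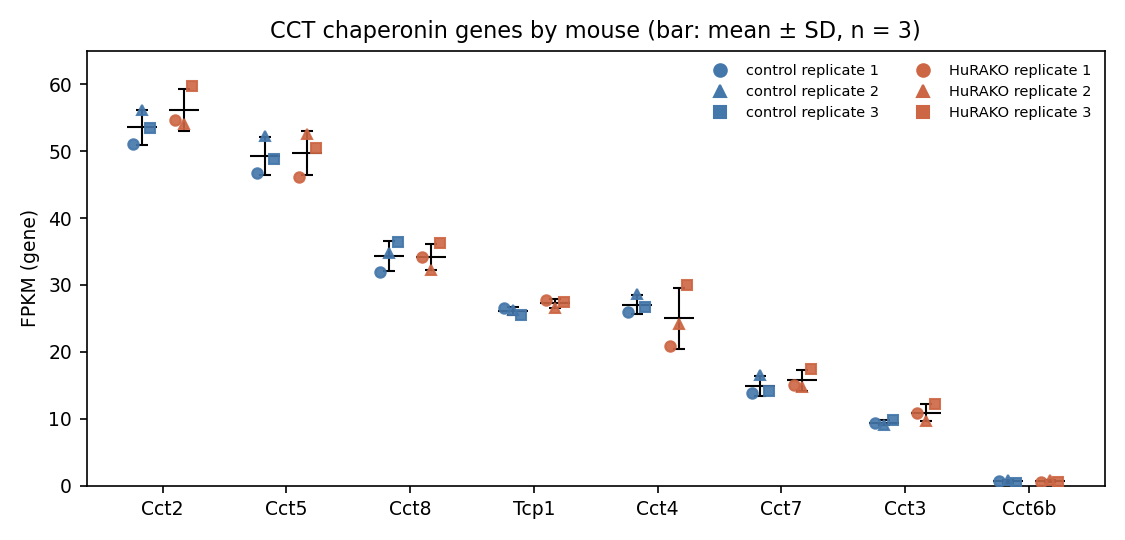
FPKM by mouse (gene table, linear axis from 0) of the 8 CCT genes, ordered by mean level; circles, triangles and squares are replicates 1, 2 and 3, blue is control, orange is HuRAKO and bars are the mean ± SD of 3 mice. The groups overlap for every gene, from Cct2 (means of 53.6 and 56.1 FPKM) to Cct6b (0.63 and 0.681 FPKM).

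At the level of transcripts, 3 of the 17 tested CCT transcripts (17.6%) had an unadjusted p below 0.05, where 6.52% of all 23233 tested transcripts did (3.32% higher and 3.2% lower). All 3 also had a fold above 1.5, as had 4.59% of all tested transcripts at that p. One of them, Cct7-203, had an adjusted p below 0.05, as had 0.0603% of all tested transcripts, and 4 of 17 had groups without overlap, where 13.1% of all tested transcripts did (6.49% higher and 6.62% lower). Cct7 encodes the eta subunit. Its gene level was 13.8, 16.6 and 14.2 FPKM in controls and 15.0, 14.7 and 17.5 FPKM in HuRAKO mice, and Cct7-201, the full-length form, was at 16.5, 20.3 and 18.6 FPKM in controls and 17.4, 17.1 and 18.9 FPKM in HuRAKO mice. Neither separated the groups. Cct7-203 was listed at 0 in all 3 controls and at 25.4, 25.3 and 33.3 FPKM in HuRAKO mice.

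Over all rows of transcripts, 29 of 24946 transcripts (0.116%) were listed at 0 in every control and above 0 in every HuRAKO mouse, and 34 (0.136%) showed the reverse. With a mean above 10 FPKM in the other group there were 3 such transcripts (0.012%) in both directions together, Cct7-203 among them. It ranked 1 of 23233 by p, with an adjusted p of 0.00185 in limma, which over the alternative settings ran from 0.000459 to 0.164, the last with the replicate number as a block. The fitted log2 difference of 4.85 ± 0.16 (SE) depends on the pseudocount and is no bound, and since a value of 0 in FPKM can be a failed estimate, no fold is given. The 3 control values of 0 added no spread, so the SE, p and rank rest on the HuRAKO mice and on limma's variance moderation. A failed estimate would affect the p and rank as well.

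Cct7-203 differs from Cct7-201 inside the coding region by 1 exon. In the GENCODE M21 annotation Cct7-201 has 12 exons and 1635 coding bases and Cct7-203 has 11 exons and 1509 coding bases, because exon 4 (chromosome 6, 85461045 to 85461170, plus strand, GRCm38) is skipped. That exon has 126 bases, or 42 codons, so the frame is kept. Their untranslated ends also differ, with 608 bases before and 198 bases after the coding region in Cct7-201 and 30 and 5 bases in Cct7-203. The sequences across the junction that ends exon 3 tell the forms apart and are shown for that reason, with the first bases of exon 4 in capitals; the start and end are those of the outermost bases in the genome.
Cct7-201, exon 3 to exon 4, chr6:85460037-85461056: caggatgctgagGTTGGTGATGGC
Cct7-203, exon 3 to exon 5, chr6:85460037-85461519: caggatgctgaggctgttaacaaa
The first 12 bases are the same. Reads across each junction are not analysed here, so the values above rest on the assignment of reads made upstream.

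The gene value and the transcript values of Cct7 moved apart. When each listed transcript's FPKM was multiplied by its length and the sum was divided by the gene FPKM times the length of all its exons, the listed transcripts covered 43.2, 44.0 and 47.1% of the gene in controls and 80.5, 81.0 and 82.3% in HuRAKO mice. The median over 12913 genes was 96.2 to 96.6% in each mouse. The difference was 36.5 percentage points. Counting Cct7 itself, 36 of 12795 genes had an upward difference of at least that size, and 87 had one in either direction. Of 7 annotated Cct7 transcripts, 2 have rows used here, and the others are not analysed here; Cct7-202, annotated for nonsense-mediated decay, lacks exon 3 of Cct7-201 in the same way as Cct7-203 lacks exon 4. The Cct7 locus shares 457 bases, all in exon 1 of Cct7-201, with Pradc1 on the opposite strand, and none with the exons of Cct7-203. Pradc1 was at 2.38, 2.28 and 1.79 FPKM in controls and 2.63, 2.12 and 1.88 FPKM in HuRAKO mice, which overlapped.

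Smaller differences between transcripts were seen for Tcp1 and Cct3. Tcp1-201, a shorter form, was at 4.05, 3.69 and 2.05 FPKM in controls and 6.06, 9.55 and 7.74 FPKM in HuRAKO mice, without overlap (log2 fold change 1.06 ± 0.26, limma adjusted p = 0.551), while the main form Tcp1-209 overlapped fully. Cct3-204 was at 1.65, 2.27 and 0.866 FPKM in controls and 0.0634, 0.814 and 0.0631 FPKM in HuRAKO mice, lower without overlap (-0.99 ± 0.31, adjusted p = 0.686). Cct3-201, the main form of the gamma subunit, was at 10.9, 18.1 and 17.9 FPKM in controls and 23.0, 24.6 and 20.2 FPKM in HuRAKO mice, higher without overlap (0.53 ± 0.23, adjusted p = 0.757).

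The share of a gene's listed transcript FPKM held by its leading transcript was compared for the 7 CCT genes with several listed transcripts. For Cct7-201 the share was 100% in each control and 40.6, 40.3 and 36.2% in HuRAKO mice. Tcp1-209 held 92.7 ± 2.16% in controls and 83.9 ± 4.10% in HuRAKO mice, and Cct3-201 held 67.1 ± 16.6% and 81.8 ± 4.04% (SD, n = 3 each). The Cct3-201 difference of 14.7 percentage points was 5.09 without control mouse 1, whose share was 48.0%, and reached up to 19.8 when other mice were left out. For these 3 genes the groups did not overlap, for the other 4 they did, and a two-sided exact permutation test gave p = 0.1 for each of the 3, the smallest that 3 against 3 mice allow, or 0.233 after Benjamini-Hochberg adjustment over the 7 genes. The means of Cct2, Cct4, Cct5 and Cct8 differed by -1.03 to 1.65 percentage points.

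**Figure D5:**
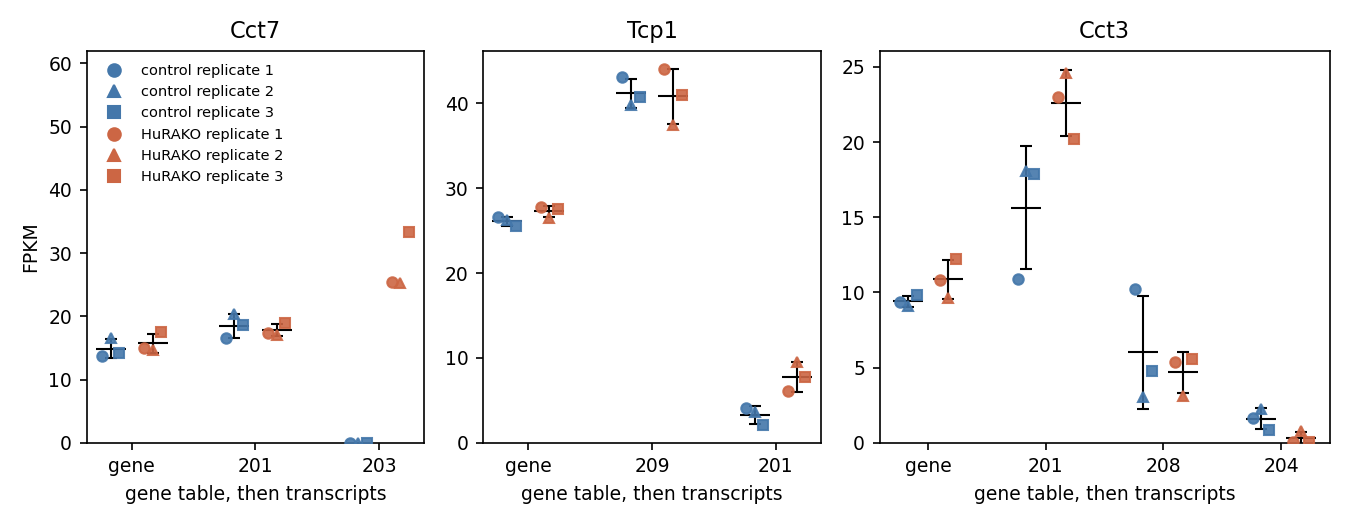
FPKM by mouse (linear axes from 0) of the genes Cct7, Tcp1 and Cct3 and of their listed transcripts; circles, triangles and squares are replicates 1, 2 and 3, blue is control, orange is HuRAKO and bars, left out for Cct7-203, are the mean ± SD of 3 mice. Cct7-203 is at 0 in all controls and at 25.3 to 33.3 FPKM in HuRAKO mice, while the gene and Cct7-201 overlap between groups.

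Across the members, the mice of one group also differed from each other. Control mouse 1 had the lowest value of the 6 mice for 24 of 76 members (31.6%, against 20.4% of all tested genes) and control mouse 3 for 22 (28.9%, against 20.0%). HuRAKO mouse 3 had the highest value for 20 members (26.3%, against 12.2% of all tested genes). HuR binds AU-rich elements in messenger RNA, and the pentamer ATTTA occurred in the longest annotated 3' untranslated region of 57 of 76 members (75%) and of 8962 of 12738 tested genes with such a region (70.4%). A match to the pentamer is no measure of binding.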

How the data were processed

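Gene and transcript FPKM, as deposited by the authors, were used for epididymal fat of 3 control and 3 HuRAKO mice. The submitters' processing notes name Bowtie 0.12.2 and GRCm38, and the program that computed FPKM is not given in the sources used here. Library kit and instrument differ between methods and labels. All 6 value columns of each table were used, 0 were left out, and 1 empty line per table was dropped. Depth is unknown, and precision was judged from the variation among mice.

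Rows averaging 0.5 FPKM or more were compared as log2(FPKM + 1) with limma 3.58.1 in R 4.3.3, which was tested on simulated data. P-values are two-sided and Benjamini-Hochberg adjusted over the whole table. Python 3.11.15, pandas 2.3.3, numpy 2.4.6 and matplotlib 3.10.9 served for tables and plots, and GENCODE M21 for exons.

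Members and lists were chosen with earlier results of these data known. All members outside DNAJ could be named; of DNAJ, the 6 highest means, the 5 smallest p-values in each direction and all with an unadjusted p below 0.05; and all tested CCT transcripts. Of related lists, up to 4 genes with the smallest p could be named. Dnaja4, Dnajb1, Dnajb5, Dnajb6, Dnajc22 and the Hspa5 transcripts were named after their values were seen.

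Same-numbered mice deviated together (correlations of deviations 0.101, 0.175 and 0.22), so the numbers were treated as pairs in one alternative; the labels do not say what the numbers mark, and control 1 also correlated with HuRAKO 2 (0.106). Other alternatives were the pseudocount, the filter, scaling, the variance model, mouse weights and leaving out each mouse.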

Additional observations from a re-analysis of the deposited data

How the results depend on the processing

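No member gene had an adjusted p below 0.05 under any of the alternatives, and the lowest was 0.294 (Hspa4l, mouse weights). The members past the study's thresholds numbered 0 with equal summed FPKM per mouse and 0 without moderation, and 1 to 2 when each mouse was left out (2 without HuRAKO mouse 2). The members at an unadjusted p below 0.05 and higher numbered 2 with a pseudocount of 0.1, 2 with the replicate number as a block and 1 to 3 when each mouse was left out (1 without control mouse 1 or HuRAKO mouse 1, 2 without control mouse 2). Those lower numbered 2 with a pseudocount of 0.1, 2 with the block, 4 with mouse weights, and 0 to 5 when each mouse was left out (5 without control mouse 3, 0 without HuRAKO mouse 3). The shares of all tested genes called under these alternatives are not given here, so the counts show only how calls vary by setting. Hspa4l had an unadjusted p below 0.05 in all of the 6 fits without 1 mouse, Bag4 in 4, Dnajc24 in 2, and Hspa4 and Hspa12b in 1 each.

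With the replicate block, 0 CCT transcripts had an adjusted p below 0.05, and Cct7-203 kept its log2 difference of 4.85 with an adjusted p of 0.164; the block changed no other adjusted call. With a pseudocount of 0.1 its log2 difference was 8.12. The HSF median was -0.19 with a minimum mean of 1 FPKM, where fewer genes are tested. The DNAJ median ran from -0.02 to 0.06 when each mouse was left out. The HSP90 median ran from -0.04 to 0.14 and the HSP60 and HSP10 median from -0.03 to 0.17. Among the named genes and transcripts that were refitted singly, log2 fold changes that changed sign when a mouse was left out were those of Hspa1a (-1.2 to 0.02), Hspa5 (-0.53 to 0.1), Dnaja4 (-0.44 to 0.38), Hspa8 (-0.06 to 0.16), Hsp90b1 (-0.04 to 0.14) and Cct7-201 (-0.12 to 0.02). The heat shock element share of member promoters was 6.56% with 3 units. The median of all tested genes stayed between -0.035 and 0.011. The unknown depth limits every low value, and 3 mice per group limit the tests.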

Other observations

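The low value of Hspa5 in HuRAKO mouse 2 lay in 1 of its 2 listed transcripts. Hspa5-202 was at 88.0, 98.9 and 128 FPKM in controls and 99.9, 15.9 and 125 FPKM in HuRAKO mice, while Hspa5-201 was at 4.91, 6.19 and 6.95 FPKM in controls and 5.87, 24.8 and 6.62 FPKM in HuRAKO mice. The same mouse was thus lowest for the main transcript and highest for the minor transcript.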
